A study of Homo sapiens with 2 samples.

Results

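The integrin subunit genes and the tetraspanin genes were examined in R-HL60, a cytarabine-resistant leukaemia line, against its parent HL60. They were taken by name from the deposited arrays: every name beginning with ITGA, ITGB followed by a single digit, every name beginning with TSPAN and a digit, and the tetraspanins CD9, CD37, CD53, CD63, CD81, CD82 and CD151. This gave 56 of 43270 genes and transcripts, carried by 78 of 58201 probes: 26 integrin subunits, 29 tetraspanins and ITGA9-AS1, a long non-coding RNA gene whose name carries that of ITGA9. R-HL60 was made from HL60 by continuous exposure to rising cytarabine concentrations, which the sources used here do not state, and its sample is labelled as treated with cytarabine. HL60 comes from a human acute myeloid leukaemia, and its sample is labelled as untreated. Both lines were kept in the same medium with fetal bovine serum, and cytarabine, a nucleoside analogue of deoxycytidine, is incorporated into DNA and halts its synthesis.

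There was 1 one-colour Agilent array for each line, which gives 1 fluorescence signal per probe. With 1 array per line there was no replicate, no test between cultures could be made, and line and array cannot be told apart. All differences below are log2 differences, R-HL60 minus HL60, after each array was set to its own 75th percentile, which was a signal of 294 on the R-HL60 array and 292 on the HL60 array. The array median, 32.8 on R-HL60 and 30.7 on HL60, served as a floor below which a signal was not read as a level. For the 21838 genes that exceeded the floor on both arrays, the median difference was -0.03, and the central 95% of differences ran from -0.46 to 0.64. Promyelocytic and myeloid markers were above the floor on both arrays for 8 of 8 genes, with a summed signal of 725961 on R-HL60 and 814776 on HL60.

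Integrins are heterodimers of an alpha and a beta subunit that bind matrix proteins or counter-receptors on other cells and signal in both directions across the membrane. Leukocytes carry the beta2 family, in which ITGB2 (CD18) pairs with ITGAL, ITGAM, ITGAX or ITGAD, and ITGAM (CD11b) is a common marker of HL60 cells that mature along the granulocyte or monocyte path. Tetraspanins are small proteins with 4 membrane-spanning segments that gather integrins, proteases and immune receptors into membrane microdomains, and several are abundant on exosomes.

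Of the 56 genes, 37 were above the floor on both arrays, 1 on the R-HL60 array only and 18 on neither. None of the 38 that exceeded it on 1 array or both was 2-fold higher or 2-fold lower on R-HL60, where 0.786% and 0.297% of all 23531 such genes were. At 1.5-fold there was 1 higher gene, ITGB2, and 1 lower gene, CD9, beside 3.53% and 1.38% of all genes. At 1.2-fold, a limit chosen after the values were seen, 11 of the 38 were higher (28.9%, against 13.3% of all genes) and 4 were lower (10.5%, against 10.7%). The 11 were ITGB2, ITGAL, ITGAX, ITGAM, ITGA2B, TSPAN4, TSPAN14, TSPAN1, CD37, CD53 and ITGA9-AS1, and the 4 were CD9, ITGB1, CD151 and TSPAN13. The median difference was 0.02 over the 37 genes, -0.03 over the 18 measured integrin subunits and 0.04 over the 18 measured tetraspanins, so both families as a whole lay close to the median of all genes. The difference was above 0 for 19 of the 37 (51.4%) and for 42.8% of all genes.

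**Figure D1:**
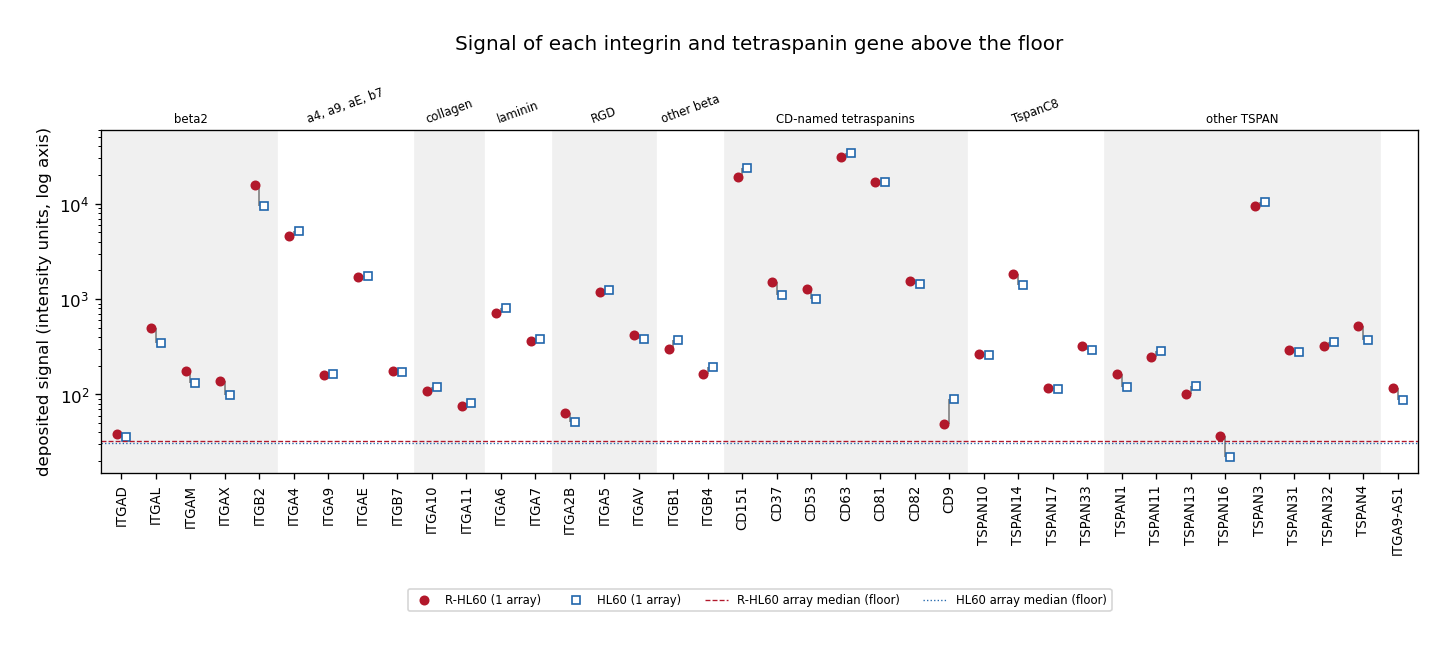
Deposited signal (log axis, intensity units) of each of the 38 genes above the floor, R-HL60 as filled circles and HL60 as open squares, 1 array each, grouped by role and joined by a line. ITGB2, ITGAL, ITGAM and ITGAX read higher on R-HL60, CD9 read lower, and most other pairs nearly coincide. The dashed and dotted lines are the array medians of 32.8 (R-HL60) and 30.7 (HL60).

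Different probes for the same gene gave the sole repeated measurement. Over 4723 genes with several measured probes, the probe-to-probe SD of the difference was 0.19. It ran from 0.35 among dim genes to 0.08 in the brightest decile of genes, and it does not cover differences between cultures or arrays. For this SD a gene was placed by the mean brightness of its measured probes, but each gene below is set against the decile of its brightest probe. For a gene with a bright and a dim probe, the SD is therefore not taken from fully like genes. Among the integrins and tetraspanins, 10 genes had several measured probes, and in 6 of these every probe gave the same sign. The other 27 measured on both arrays rested on 1 measured probe each.

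Promoter sequences are shown for 4 of the genes past 1.2-fold, ITGAM and TSPAN4 on the higher side and ITGB1 and CD9 on the lower side, since genes of one family differed in opposite directions. These 4 were picked by hand, and each holds a match to a motif marked below. RefSeq windows of 250 bases before to 50 bases after the gene start (GRCh38.p14) were matched for 38 of the 56 genes. ITGB2, ITGAL, ITGAX and ITGAD were not among these 38. The windows lie at chr16:31259725-31260024 (plus strand) for ITGAM, chr11:842602-842901 (plus strand) for TSPAN4, chr10:32958181-32958480 (minus strand) for ITGB1 and chr12:6199696-6199995 (plus strand) for CD9. They are written 5′ to 3′ along the gene. Capitals mark matches, on either strand, to GAGGAA, a string that the myeloid factor PU.1 can bind and that is called the PU.1 core here, and to the NF-kB consensus. Shorter or variant PU.1 sites were not searched for and are not marked.
ITGAM: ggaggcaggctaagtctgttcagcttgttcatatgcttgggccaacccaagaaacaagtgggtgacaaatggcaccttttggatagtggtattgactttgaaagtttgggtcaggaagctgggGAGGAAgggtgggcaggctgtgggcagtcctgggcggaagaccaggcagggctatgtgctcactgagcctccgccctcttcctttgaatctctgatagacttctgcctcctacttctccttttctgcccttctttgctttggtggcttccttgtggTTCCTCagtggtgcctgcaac
TSPAN4: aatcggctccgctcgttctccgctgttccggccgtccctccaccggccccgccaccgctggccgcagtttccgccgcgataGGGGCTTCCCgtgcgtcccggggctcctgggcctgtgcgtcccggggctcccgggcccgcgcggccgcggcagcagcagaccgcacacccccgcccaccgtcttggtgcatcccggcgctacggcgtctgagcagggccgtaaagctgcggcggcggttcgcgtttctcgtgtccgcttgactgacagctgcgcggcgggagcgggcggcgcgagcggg
ITGB1: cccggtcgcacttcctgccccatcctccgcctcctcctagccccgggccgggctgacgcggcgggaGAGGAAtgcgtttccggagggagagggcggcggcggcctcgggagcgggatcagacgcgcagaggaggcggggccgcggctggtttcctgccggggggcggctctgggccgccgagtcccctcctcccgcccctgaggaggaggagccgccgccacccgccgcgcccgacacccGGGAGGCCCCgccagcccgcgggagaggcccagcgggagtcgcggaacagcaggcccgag
CD9: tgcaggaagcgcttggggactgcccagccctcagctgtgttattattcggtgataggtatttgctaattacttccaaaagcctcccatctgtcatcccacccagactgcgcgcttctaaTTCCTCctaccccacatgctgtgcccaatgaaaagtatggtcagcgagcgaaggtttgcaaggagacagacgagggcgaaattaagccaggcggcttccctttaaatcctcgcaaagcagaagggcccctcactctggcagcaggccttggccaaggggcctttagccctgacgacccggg
ITGAM holds the PU.1 core at -127 and again at 30, counted from the gene start, ITGB1 holds it at -184 and CD9 at -131. The NF-kB consensus lies at -169 in TSPAN4 and at -10 in ITGB1, and no match overlaps another in these 4 windows. The PU.1 core was found in 27.6% of 27305 promoter windows of the same length and in 9 of the 25 windows of integrin and tetraspanin genes above the floor. The NF-kB consensus was found in 7.41% of all windows and in 4 of these 25. The 4 genes were TSPAN4, with a difference of 0.49, ITGB1, at -0.33, and ITGA10 and ITGA11, at -0.14 each. Among other genes past 1.2-fold, ITGA2B, TSPAN1, CD53 and TSPAN13 had windows with neither motif, and TSPAN14 had the PU.1 core. A match is a string of letters and not a shown binding site, and both motifs occurred in genes on either side of 0.

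The beta2 integrins were the group with the highest median, 0.49 over 5 of 5 genes measured on both arrays, and all 5 differences were above 0. With each array set to its median, however, ITGAD was at -0.003, where the median of all genes was -0.12. ITGB2, the beta subunit shared by all of them, read 15723 on the R-HL60 array and 9399 on the HL60 array with its brighter probe. This was 1.66-fold higher (log2 difference 0.73), against a probe-to-probe SD of 0.08 in the decile of brightness of that probe. Its second probe read 251 on R-HL60 and 162 on HL60, a difference of 0.62, so both ITGB2 probes were more than 1.5-fold higher. As a description of where ITGB2 lies, 2.42% of all measured genes and 0.595% of the genes in the brightest decile differed by as much in either direction.

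The alpha partners of ITGB2 read higher by smaller amounts. ITGAL (CD11a), which with ITGB2 forms LFA-1, the receptor for ICAM ligands, read 498 on R-HL60 and 349 on HL60. That was 1.42-fold higher, and 4.44% of genes in its decile of brightness differed by as much. ITGAX (CD11c), the alpha subunit of a complement receptor of macrophages and dendritic cells, read 139 on R-HL60 and 98.4 on HL60, or 1.41-fold higher. In the brightness decile of ITGAX, 8.89% of genes differed by as much.

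ITGAM, the alpha subunit of the complement receptor Mac-1, read 177 on R-HL60 and 133 on HL60. Its 1.32-fold difference was below 2 probe-to-probe SDs of its brightness decile (SD 0.21), and 14.6% of genes in that decile differed by as much. ITGAD, whose product is the least common beta2 partner, read 38.4 on R-HL60 and 35.9 on HL60, just above the floor on both, with a difference of 0.09. ITGAL, ITGAM and ITGAX thus each read higher on their single measured probe, while ITGAD was nearly equal on both arrays. Under the 8 other ways of scaling, setting the floor or combining probes, ITGB2 ranged from 0.64 to 0.80, ITGAL from 0.41 to 0.52, ITGAX from 0.34 to 0.49 and ITGAM from 0.30 to 0.40. For these genes the floor settings left the difference unchanged, as did probe means for all but ITGB2, and the authors' table matched quantile normalization. Fewer than 8 of the settings could therefore move these values.

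All 4 of these alpha genes lie on chromosome 16 in the RefSeq gene order, where ITGAM, ITGAX and ITGAD follow one another. The 8 measured genes flanking that trio had differences between -0.58 and 0.10, with a median of -0.07. The 8 measured genes flanking ITGAL had differences between -0.54 and 0.03, with a median of -0.11. ITGAL, ITGAM and ITGAX therefore lay above every flanking gene examined, while ITGAD, at 0.09, lay within the range of the genes flanking the trio.

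Markers of other blood cells that carry beta2 integrins were read beside this group. Of 6 monocyte and macrophage markers, 3 were above the floor on both arrays and 1 on R-HL60 only, FCGR3A was below it on both, and LYZ had no probe by that name. Their summed signal was 448 on R-HL60 and 483 on HL60, with CD14 at a difference of -0.19, CSF1R at -0.35 and CD163 at 0.08, and MRC1, above the floor on R-HL60 only, at least 1.55-fold higher. Of the 8 promyelocytic and myeloid markers, 7 had differences below 0. The granule protease gene ELANE read 153 on R-HL60 and 700 on HL60 (-2.20, or 4.59-fold lower), PRTN3 read 18985 on R-HL60 and 32955 on HL60 (-0.80, or 1.75-fold lower), and ANPEP differed by 0.32. Of 7 B and T lymphoid markers, 6 were above the floor on both arrays and CD3G was below it, and their summed signal was 9052 on R-HL60 and 6442 on HL60. CD3D made up most of that sum, at 6201 on R-HL60 and 3923 on HL60. The other lymphoid markers measured on both arrays had differences of 0.67 for CD79B, which read 324 on R-HL60 and 203 on HL60, 0.13 for CD79A, 0.10 for MS4A1, -0.15 for CD3E and -0.36 for CD2. The part of these markers in the beta2 result was not tested. In RNA from a whole culture, more cells with a transcript and more transcript per cell cannot be told apart.

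**Figure D2:**
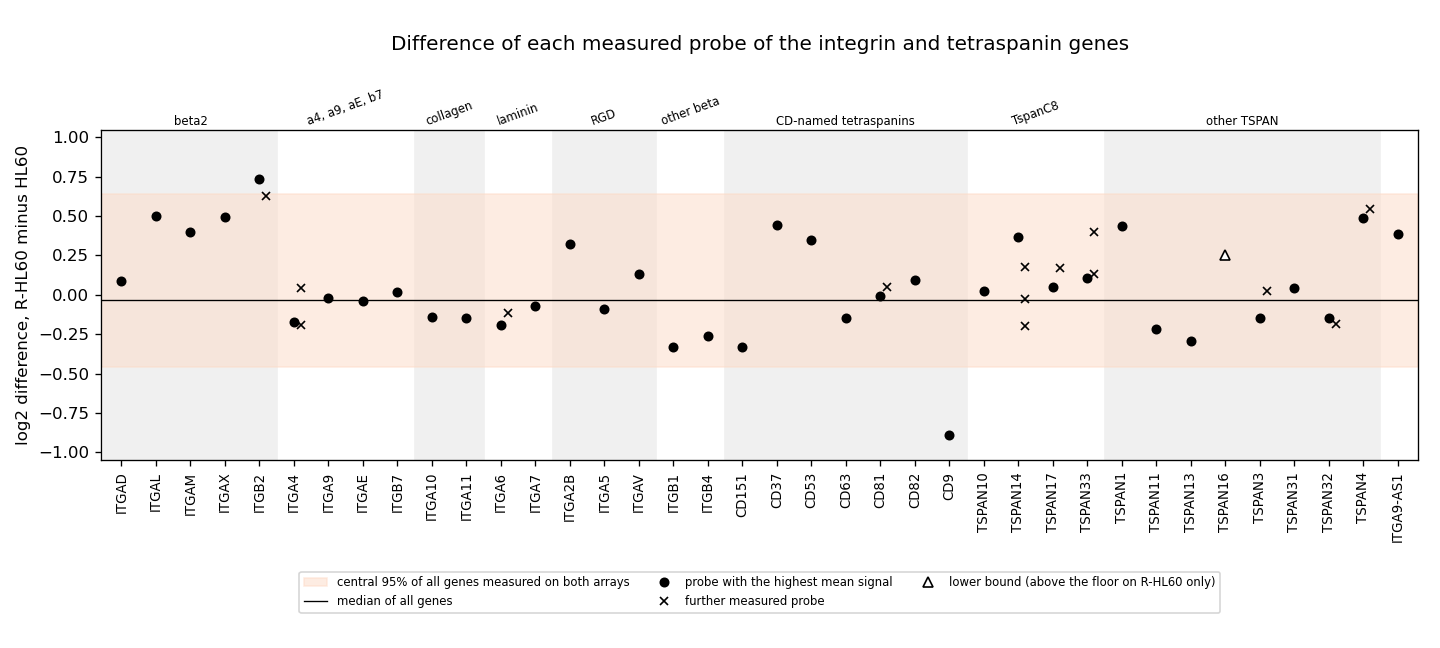
Log2 difference (R-HL60 minus HL60) of every measured probe of the integrin and tetraspanin genes, grouped by role. Filled circles are the probe with the highest mean signal, crosses are further measured probes and the open triangle is the lower bound for TSPAN16. The shaded band, from -0.46 to 0.64, holds the central 95% of all measured genes. Only ITGB2 (0.73) and CD9 (-0.89) have their brightest probe outside it.

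The alpha4, alpha9, alphaE and beta7 integrins, which guide leukocytes to VCAM1, MADCAM1 and epithelial E-cadherin, were nearly equal on both arrays. Their 4 differences ran from -0.17 to 0.02, with a median of -0.03. ITGA4, the subunit of the VCAM1 receptor VLA-4, read 4622 on R-HL60 and 5186 on HL60 with its brightest probe, a difference of -0.17. Its 2 further probes gave -0.19 and 0.05, so they did not share a sign. ITGAE read 1706 on R-HL60 and 1745 on HL60, and ITGB7, the beta subunit that pairs with both ITGA4 and ITGAE, read 176 on R-HL60 and 172 on HL60. ITGA9 read 162 on R-HL60 and 163 on HL60.

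Of the 6 other beta subunits, 2 were measured on both arrays, and both had differences below 0, of which only that of ITGB1 passed 1.2-fold. ITGB1, which pairs with most matrix-binding alpha subunits, read 301 on R-HL60 and 375 on HL60, a difference of -0.33. ITGB4, the partner of ITGA6 in the laminin receptor of epithelia, read 163 on R-HL60 and 195 on HL60, a difference of -0.26. Both rested on 1 measured probe, and in their deciles of brightness 16.5% of genes differed by as much as ITGB1 and 30.4% by as much as ITGB4. ITGB3, ITGB5, ITGB6 and ITGB8 were below the floor on both arrays.

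The matrix-binding alpha subunits of laminin and collagen held no difference of 1.2-fold. ITGA6, a laminin receptor subunit, read 717 on R-HL60 and 814 on HL60, with differences of -0.19 and -0.11 on its 2 probes. ITGA7, also laminin-binding, read 362 on R-HL60 and 378 on HL60 (-0.07). The collagen-binding subunits ITGA10 and ITGA11 differed by -0.14 each, with signals of 109 and 74.97 on R-HL60 and of 120 and 82.4 on HL60. These 4 genes all lay slightly below 0, by less than the probe-to-probe SD at their brightness for ITGA7, ITGA10 and ITGA11.

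Of the alpha subunits that recognise RGD peptides, ITGA5, the fibronectin receptor subunit, read 1184 on R-HL60 and 1252 on HL60 (-0.09). ITGAV, the vitronectin receptor subunit, read 420 on R-HL60 and 382 on HL60 (0.13). ITGA2B, the platelet fibrinogen receptor subunit, read 64.1 on R-HL60 and 51.0 on HL60 (0.32), and 31.2% of genes of that brightness differed by as much. The megakaryocyte and platelet markers PPBP and PF4 were below the floor on both arrays. Their list had 3 of 6 genes above the floor on both arrays and a summed signal of 1198 on R-HL60 and 2163 on HL60. ITGA1, ITGA2, ITGA3 and ITGA8 were below the floor on both arrays.

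ITGA9-AS1 is listed separately because it encodes no subunit. Its brightest probe read 116 on R-HL60 and 88.5 on HL60 (0.39), another probe was above the floor on HL60 only, at 32.3 on R-HL60 and 40.8 on HL60, and its last was below it on both. The first 2 of these probes pointed in opposite directions. ITGA9 itself differed by -0.02.

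Among the 7 CD-named tetraspanins, CD37 and CD53 read somewhat higher on R-HL60 and CD9 and CD151 read lower, with a median of -0.01. CD37, which is largely restricted to leukocytes and is abundant on mature B cells, read 1498 on R-HL60 and 1095 on HL60, a difference of 0.44. CD53, a pan-leukocyte tetraspanin, read 1287 on R-HL60 and 1007 on HL60, a difference of 0.35. Both differences were more than 2 probe-to-probe SDs at that brightness (SD 0.13), and 3.80% and 7.74% of genes there differed by as much as CD37 and as CD53. CD82, a widely expressed tetraspanin known as a suppressor of metastasis, read 1568 on R-HL60 and 1458 on HL60, a difference of 0.10.

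CD9, a tetraspanin of platelets, early B cells and many adherent cells that is also common on exosomes, had the most negative difference of all 37 genes. It read 49.0 on R-HL60 and 90.2 on HL60 (-0.89, or 1.85-fold lower). Its R-HL60 signal was close to the floor of 32.8 on the gene's 1 probe, and among genes of its brightness the probe-to-probe SD was 0.35 and 3.48% differed by as much. With 50 units added to each signal, the difference was -0.51, and with a floor at the 60th percentile only a bound of -0.49 remained. CD151, which binds the laminin receptor integrins laterally, read 19181 on R-HL60 and 23942 on HL60 (-0.33). In that brightest decile of genes the probe-to-probe SD was 0.08, and 3.57% of genes differed by as much.

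The exosome tetraspanins CD63 and CD81 stayed close to equal. CD63, which is also a protein of late endosomes and azurophil granules, read 30678 on R-HL60 and 33791 on HL60 (-0.15). CD81, a widely expressed tetraspanin also abundant on lymphocytes, read 17001 on R-HL60 and 16971 on HL60. Its 2 probes gave differences of -0.01 and 0.05, and the first was 0.06 in the authors' table.

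**Figure D3:**
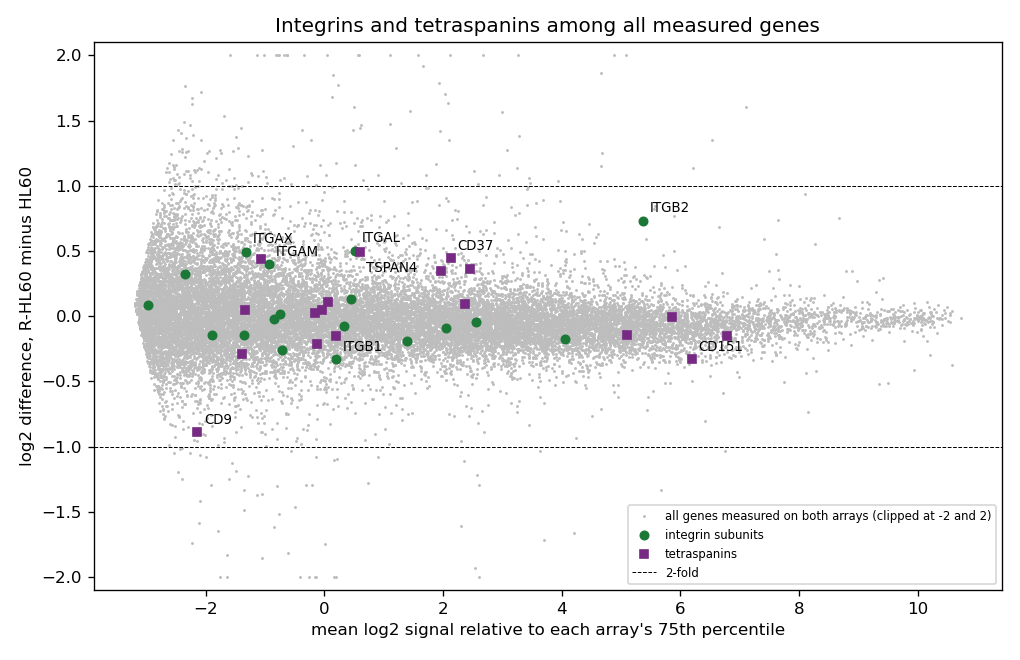
Log2 difference (R-HL60 minus HL60) against mean log2 signal relative to each array's 75th percentile, for the 21838 genes measured on both arrays (grey, clipped at -2 and 2), with integrin subunits as green circles and tetraspanins as purple squares. The grey cloud narrows to the right, and ITGB2 stands above nearly all genes of like brightness, while CD9 lies among dim genes, where differences spread more. The dashed lines mark 2-fold, which no integrin or tetraspanin reaches.

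The TspanC8 tetraspanins bind the protease ADAM10 and govern its traffic and its choice of substrates. Of 6 such genes, 4 were measured on both arrays, all with differences above 0 on their brightest probe and a median of 0.08. TSPAN14 read 1831 on R-HL60 and 1413 on HL60 with its brightest probe (0.36), but its 3 further probes gave -0.03, 0.18 and -0.20, and the mean of its probes was 0.08. TSPAN33 read 319 on R-HL60 and 294 on HL60, with differences of 0.11, 0.13 and 0.40 on its 3 probes. TSPAN17 read 118 on R-HL60 and 113 on HL60 (0.05 and 0.17 on its 2 probes), and TSPAN10 read 267 on R-HL60 and 260 on HL60 (0.03). With each array set to its median, TSPAN10 was at -0.06 and TSPAN17 at -0.04, where the median of all genes was -0.12. TSPAN5 and TSPAN15 were below the floor on both arrays, and ADAM10 itself differed by -0.16 and -0.24 on its 2 probes.

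Among the other TSPAN genes, TSPAN4 had 2 probes that pointed the same way. It encodes a tetraspanin known for organising migrasomes, the vesicles left behind by migrating cells. Its probes read 525 and 265 on R-HL60, against 372 and 181 on HL60, with differences of 0.49 and 0.54. The probe-to-probe SD at the brightness of the first was 0.16, and 4.67% of genes there differed by as much. TSPAN1, an epithelial tetraspanin, read 162 on R-HL60 and 119 on HL60 (0.44), on 1 probe. At the brightness of TSPAN1 the probe-to-probe SD was 0.21, and 11.6% of genes differed by as much. Of 6 epithelial markers, EPCAM and CDH1 were below the floor on both arrays, and the list's summed signal was 2076 on R-HL60 and 1893 on HL60. The other 4 differed by 0.78 for KRT19, which read 68.5 on R-HL60 and 39.6 on HL60, 0.18 for KRT8, 0.09 for KRT18 and -0.15 for CLDN4. Their part in the TSPAN1 value was not tested.

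The remaining TSPAN genes were measured at differences between -0.29 and 0.04. TSPAN3 read 9534 on R-HL60 and 10496 on HL60 (-0.15, with 0.03 on its other probe), and TSPAN31 read 290 on R-HL60 and 280 on HL60 (0.04). TSPAN32, a tetraspanin of haematopoietic cells, read 319 on R-HL60 and 352 on HL60, with differences of -0.15 and -0.19 on its 2 probes. TSPAN11 read 248.6 on R-HL60 and 287 on HL60 (-0.21), and TSPAN13 read 102 on R-HL60 and 124 on HL60 (-0.29, or 1.22-fold lower). TSPAN16 was above the floor on R-HL60 only, at 36.8 against 22.3 on HL60, or at least 1.19-fold higher (0.71 on the log2 scale with a floor at the 40th percentile or none). The other 8 genes of this group, TSPAN2, TSPAN6, TSPAN7, TSPAN8, TSPAN9, TSPAN12, TSPAN18 and TSPAN19, were below the floor on both arrays.

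**Figure D4:**
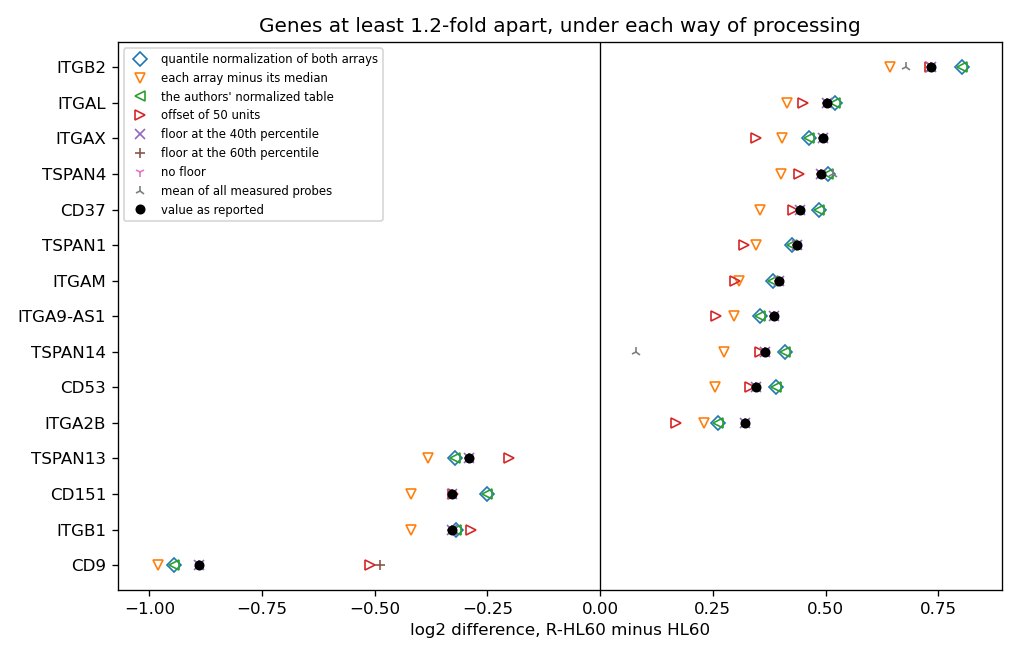
Log2 difference (R-HL60 minus HL60, horizontal axis) of the 15 genes at least 1.2-fold apart, as reported (black circles) and under 8 other ways of scaling, setting a floor or combining probes (other symbols), of which ITGA2B has 7, as it was below the floor at the 60th percentile. No plotted value crosses 0, but several settings could not move a gene. A floor leaves the difference of a gene above it unchanged, and the authors' table nearly repeats quantile normalization. CD9 lies at -0.51 with an offset, where -0.89 was reported, and TSPAN14 at 0.08 in the mean of its probes, where 0.36 was reported.

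Genes that act with these receptors were read from lists of ligands, intracellular activators, kinases and tetraspanin partners. Of 38 integrin ligand genes, 14 were measured on both arrays, with a median of 0.07, and 16 exceeded the floor on 1 array or both. Of these 16, 2 were at least 2-fold higher (12.5%, against 0.786% of all genes), 3 at least 1.5-fold higher (18.8%, against 3.53%) and none lower. VCAM1, 1 of the 2, entered the 16 only through the R-HL60 array. The list was also chosen with earlier results of these data known, so these shares describe the list and do not test it. The 2-fold count was 1 under 5 of the 8 other settings and 4 with no floor. Of those 5, quantile normalization and the authors' table are nearly the same processing. ICAM1, a ligand of LFA-1 and Mac-1, read 352 on R-HL60 and 59.3 on HL60 (2.56, or 1.87 with 50 units added to each signal). ICAM2, a ligand of LFA-1, read 4705 on R-HL60 and 2564 on HL60, 1.82-fold higher. VCAM1, the ligand of the ITGA4 receptor, was above the floor on R-HL60 only and at least 2.03-fold higher. That bound was between 0.47 and 0.95 on the log2 scale in 4 of the settings where the count was 1, and in the other, a floor at the 60th percentile, the gene had no value. ICAM3, a further LFA-1 ligand, differed by 0.07. The fibroblast markers COL1A1, COL1A2, COL3A1 and LUM were below the floor on both arrays, and that list's summed signal was 124 on R-HL60 and 108 on HL60.

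Of 34 genes for intracellular activators and adaptors of integrins, 29 were measured on both arrays, with a median of 0.01. None was 1.5-fold apart, and at 1.2-fold 1 was higher (3.45%, against 13.3% of all genes) and 3 were lower (10.3%, against 10.7%). Talin TLN1 and kindlin FERMT3, which bind beta subunit tails and switch the receptors on, differed by -0.03 and 0.18. FYB1, an adaptor that links receptor signals to integrin activation, read 1060 on R-HL60 and 754 on HL60 (0.48). RASGRP2, an exchange factor that activates RAP1 upstream of integrins and was named after its values were seen, read 31814 on R-HL60 and 43792 on HL60 (-0.47), and its 3 further probes gave -0.33, -0.30 and -0.09. The paxillin gene PXN, also named afterwards, read 4516 on R-HL60 and 5700 on HL60 (-0.34), and the adaptor CRK, likewise, differed by -0.27.

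Of 14 kinase and GTPase pathway genes of integrin signalling, all measured on both arrays, the median was -0.03, with 1 gene 1.5-fold lower (7.14%, against 1.38% of all genes). LCK, a Src-family kinase of T cells, read 145 on R-HL60 and 241 on HL60 (-0.74), with -1.001 on its other probe.

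The tetraspanin partner list had 14 of 21 genes measured on both arrays and a median of -0.09. CLEC7A, a fungal pattern receptor that associates with CD37, was above the floor on R-HL60 only, at 58.7 against 25.9 on HL60, and at least 1.90-fold higher. That bound was 0.42 on the log2 scale with 50 units added, under 1.5-fold, the difference was 1.18 with a floor at the 40th percentile or none, and the gene had no value with a floor at the 60th percentile. As the 1 gene past 1.5-fold, counted only through the R-HL60 array, it made up 6.67% of the 15 above the floor, against 3.53% of all genes. IGSF8, a direct partner of CD9 and CD81, differed by -0.01, and CD47, which associates with integrins, by -0.06.

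**Figure D5:**
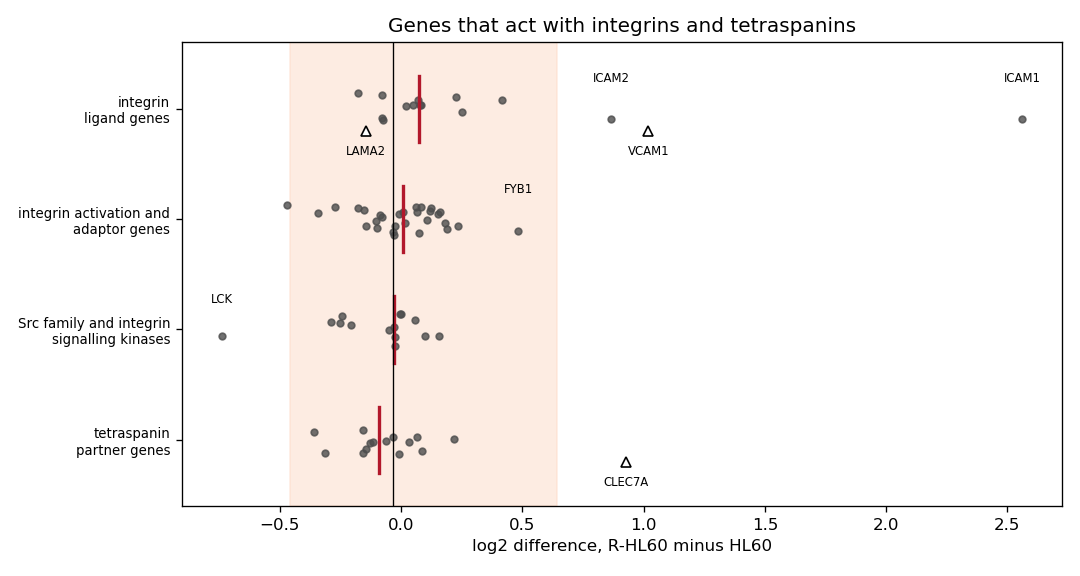
Log2 difference (R-HL60 minus HL60, horizontal axis) of the genes measured on both arrays in 4 lists of genes that act with integrins or tetraspanins (grey circles, spread vertically for legibility), with each list's median as a red bar. Open triangles are bounds for genes above the floor on 1 array only, the black line is the median of all genes (-0.03) and the shaded band, from -0.46 to 0.64, holds the central 95% of all measured genes. ICAM1 (2.56) and ICAM2 lie right of the band, LCK (-0.74) lies farthest left and list medians lie near the line.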

How the data were processed

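RNA from R-HL60 and HL60 was hybridised to 1 Agilent one-colour array each. TRIzol extraction and Cy3 labelling with a low-input kit are recorded per the labels' protocols. Feature Extraction 10.7.3.1 (Agilent) is named per the submitters' processing notes. The authors deposited 1 linear intensity per probe with a gene name for each array; the sources used here give no background treatment, probe identifiers or detection flags. They also deposited a table of normalized intensities, made by an unstated method and, rank by rank, within 1.06% of the raw arrays' mean. It served as an alternative, but its differences nearly equalled those of quantile normalization, so these settings are close to the same processing.

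Signals were taken to log2 relative to each array's 75th percentile. The probe with the highest mean stood for a gene, and each array's median was the floor. A gene above it on just 1 array got a bound against the higher of the floor and their own signal. Of 43317 names, 21081 were current symbols in RefSeq's table of GRCh38.p14, 1567 were updated from an older symbol, 57 were older symbols of several genes and 20612 were unmatched. No test was possible, so genes were counted by fold and read against all genes; the number of arrays limits the precision. Probe-to-probe SDs were pooled in 10 bins of brightness, by the mean over a gene's measured probes, and read for the bin of a gene's brightest probe. Every gene above the floor was named. Of each other list, members past 1.5-fold were named, or else the largest difference, plus 8 fixed genes. The genes and lists were chosen with earlier results of these data known. A few list genes are not reported here. The steps were tested on simulated data, with planted changes that were all more than 2-fold and in genes brighter than the 75th percentile. That test does not cover the smaller differences reported here. Alternatives were other scalings, an offset of 50, other floors, probe means and fold limits of 1.2, 1.5 and 3. Python 3.11.15, numpy 2.4.6, pandas 2.3.3 and matplotlib 3.10.9 were used.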

Additional observations from a re-analysis of the deposited data

How the results depend on the processing

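With 1 array per line, replicates could not be left out and no paired analysis was possible because each line has a single sample. No integrin or tetraspanin was 2-fold higher or lower under any other scaling, with the offset, with the floor at the 40th or 60th percentile or in probe means. With no floor, 2 were 2-fold lower, both dim. At 1.5-fold the counts were 1 higher and 1 lower, and at 1.2-fold, chosen after seeing the data, 11 higher and 4 lower. Among the ligands, 2 genes were 2-fold higher as reported, 1 with quantile normalization, each array minus its median, the authors' table, the offset or the floor at the 60th percentile, 1 at 3-fold, 4 with no floor and 4 at 1.2-fold; VCAM1 is the gene near the limit. Activator genes gave 1 higher with no floor, and 1 higher and 3 lower at 1.2-fold. Tetraspanin partners gave 1 higher with the floor at the 40th percentile, 1 higher and 1 lower with no floor, 1 higher at 1.5-fold, and 1 higher and 2 lower at 1.2-fold. Kinases gave 1 lower at 1.5-fold and 2 lower at 1.2-fold. The cause was not tested beyond what each limit or floor sets by construction. Medians of the integrins ranged from -0.14 to -0.02 and of the tetraspanins from -0.15 to 0.05, while the beta2 integrins stayed between 0.34 and 0.50; the sign of the tetraspanin median depends on the floor and the scaling, at -0.15 with no floor and -0.05 with each array set to its median. Setting each array to its median moved the median of all genes to -0.12. Signals near the floor, such as those of ITGAD, ITGA2B and TSPAN16 and that of CD9 on R-HL60, limit what can be read from them.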
